A study of Mus musculus with 11 samples.

Results

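Mgp, Gdf10, Cytl1, Cpe, Cpxm2, Fmo2, Inmt and Scara3 are 8 genes of stromal and secreted proteins chosen by their scaled counts, which were lower next to podoplanin-stained structures than next to smooth muscle actin. They are 8 of the 19962 targets in the deposited count table. All 11 regions of the table were used. Because that difference chose the genes, it is described below with no test.

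The series measured periostin-lineage cells in the naive mouse mammary gland with the GeoMx platform, in which barcoded probes are released by light from a chosen area of a section and sequenced. Frozen, paraformaldehyde-fixed glands of 3 mice were stained for smooth muscle actin (SMA), which marks ducts and blood vessels, and for podoplanin (Pdpn), which marks lymphatic vessels. Within a region only the area with ZsGreen, the reporter of the periostin lineage tracing mice, was collected. The 2 groups are 5 SMA-adjacent regions (1, 5, 6, 9 and 10) and 6 Pdpn-adjacent regions (2, 3, 4, 7, 8 and 11), out of 12 collected areas. Every region carries the same lineage reporter, no animal was treated, and the mice's strain and age are not given in the sources used here. A lineage reporter also marks cells that made periostin earlier, and a segment can take in RNA of cells that touch it. The labels used here do not say which mouse gave which region. With 5 and 6 regions from 3 mice, mice are shared within both groups.

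The genes fall into several roles. Mgp encodes matrix Gla protein, a secreted protein that needs vitamin K for its modification, keeps artery walls and cartilage from mineralising and binds bone morphogenetic proteins (BMPs). Gdf10 encodes a secreted ligand of the TGF-beta superfamily close to BMP3, and Cytl1 a small secreted cytokine-like protein known from cartilage. Cpe encodes carboxypeptidase E, which trims basic residues from prohormones, and Cpxm2 a related secreted carboxypeptidase-like protein. Fmo2 is a flavin monooxygenase that oxidises foreign compounds, Inmt a methyltransferase of indole amines, and Scara3 a scavenger receptor-like protein linked to oxidative stress. Several of these, Mgp, Gdf10 and Fmo2 among them, are familiar markers of fibroblast subsets in fat and around vessels.

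Depth differed between the groups and limits every value. Total counts ran from 760761 to 3086323 in the SMA-adjacent regions and from 22757 to 2271664 in the Pdpn-adjacent ones, where regions 2, 3 and 11 held 22757, 81760 and 30316. A single count stood for 37.5, 12.3 and 34.3 CPM (counts scaled to the library's total) in these 3 regions and for 0.307 to 4.66 CPM in the other 8. The lowest value in the table is 1, and 16 of the 24 values of the 8 genes in regions 2, 3 and 11 were at 1. The negative-control probes, which match no mouse transcript, gave a background of 29.1 to 34.2 CPM in SMA-adjacent and 26.0 to 39.4 CPM in Pdpn-adjacent regions. Acta2, the gene of the stained actin, stood at 442 to 2609 CPM in SMA-adjacent and 37.5 to 321 CPM in Pdpn-adjacent regions. Pdpn transcript was near background throughout, at 46.6 to 56.9 and 12.3 to 52.9 CPM, and could not check its label. Of 7 fibroblast markers, 7 had a median above 2 times background in SMA-adjacent regions and 4 in Pdpn-adjacent ones. Their mean ran from 6.64 to 20.6 times background over SMA-adjacent and from 0.952 to 11.0 times over Pdpn-adjacent regions. Col1a1 was at a median of 27.4 times in SMA-adjacent and 7.38 times in Pdpn-adjacent regions, while Postn itself was at 2.09 and 1.52 times.

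Start regions of 5 of the 8 genes (Gdf10, Cytl1, Cpxm2, Fmo2 and Inmt) were matched in the RefSeq promoter table. Each window holds 250 bases before and 50 after the transcription start on GRCm38.p6. Of these, 4 are printed to show how much the start regions of these genes differ in base composition and motifs. Capitals mark the motifs searched on both strands: the TATA box TATAAA, the GC box GGGCGG, the E-box CAGCTG, a kind of site bound by helix-loop-helix factors, and the CArG box of smooth muscle genes.
Gdf10, chr14:33923337-33923636, plus strand: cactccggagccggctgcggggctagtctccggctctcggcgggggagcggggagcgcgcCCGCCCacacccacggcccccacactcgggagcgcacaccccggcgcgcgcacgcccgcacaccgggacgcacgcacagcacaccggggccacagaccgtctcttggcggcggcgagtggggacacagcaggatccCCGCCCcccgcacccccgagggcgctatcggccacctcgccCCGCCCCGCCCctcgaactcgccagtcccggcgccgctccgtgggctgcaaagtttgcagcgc
Cpxm2, chr7:132154692-132154991, minus strand: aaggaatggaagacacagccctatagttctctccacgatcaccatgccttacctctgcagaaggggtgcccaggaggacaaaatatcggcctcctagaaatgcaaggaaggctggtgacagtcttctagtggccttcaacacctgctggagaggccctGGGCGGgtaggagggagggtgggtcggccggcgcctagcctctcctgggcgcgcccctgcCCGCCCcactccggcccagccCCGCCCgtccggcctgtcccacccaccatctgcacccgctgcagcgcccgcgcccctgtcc
Cytl1, chr5:37735269-37735568, plus strand: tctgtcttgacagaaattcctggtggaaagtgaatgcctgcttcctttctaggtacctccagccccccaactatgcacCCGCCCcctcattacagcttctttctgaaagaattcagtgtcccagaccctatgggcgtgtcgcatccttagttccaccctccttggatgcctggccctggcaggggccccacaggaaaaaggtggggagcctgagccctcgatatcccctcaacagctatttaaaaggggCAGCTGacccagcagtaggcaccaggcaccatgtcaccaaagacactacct
Inmt, chr6:55174941-55175240, minus strand: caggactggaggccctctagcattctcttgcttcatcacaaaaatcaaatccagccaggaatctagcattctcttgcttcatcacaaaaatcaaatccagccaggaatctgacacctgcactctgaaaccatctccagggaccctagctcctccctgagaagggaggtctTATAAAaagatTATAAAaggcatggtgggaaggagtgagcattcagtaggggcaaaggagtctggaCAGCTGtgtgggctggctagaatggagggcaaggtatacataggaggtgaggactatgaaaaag

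The Gdf10 window was 77.3% G and C with 42 CpG pairs and 4 GC boxes, and that of Cpxm2 66.0% with 17 pairs and 3 GC boxes. The Inmt window was 47.7% G and C, held 0 CpG pairs and carried 2 TATA boxes and 1 E-box. Cytl1, at 55.0% and 4 CpG pairs, held 1 GC box and 1 E-box, and Fmo2, at 41.3% and 5 pairs, held none of the 4 motifs. The median over all 32851 windows of the table was 52.7% G and C. Of those windows 13.6% hold the TATA box, 35.7% the GC box, 16.3% the E-box and 1.63% the CArG box, which was found in 0 of the 5 windows. No single motif was shared by all 5 genes.

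Mgp passed the background floor in all 5 SMA-adjacent regions. It was at 359, 313, 365, 1306 and 1117 CPM in SMA-adjacent regions 1, 5, 6, 9 and 10. In the Pdpn-adjacent regions it ran from 37.5 through a median of 101 to 172 CPM, so the groups did not overlap. Its group means were 692 ± 479 CPM (SD, n = 5) and 99.0 ± 47.8 CPM (SD, n = 6), a ratio of 6.99, and the fitted log2 fold change, Pdpn-adjacent minus SMA-adjacent, was -2.75 ± 0.58 SE. As multiples of the negative probes the levels were 9.18 to 43.8 against 0.952 to 5.39. The highest Pdpn-adjacent value came from region 7, where 37 counts give a 95% Poisson interval of 121 to 237 CPM, still under the lowest SMA-adjacent value. Such exact intervals cover counting error only. The probe lies inside the gene at chromosome 6, 136872754 to 136872788. In bulk segments like these, fewer cells making a transcript and less transcript per cell cannot be told apart.

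**Figure D1:**
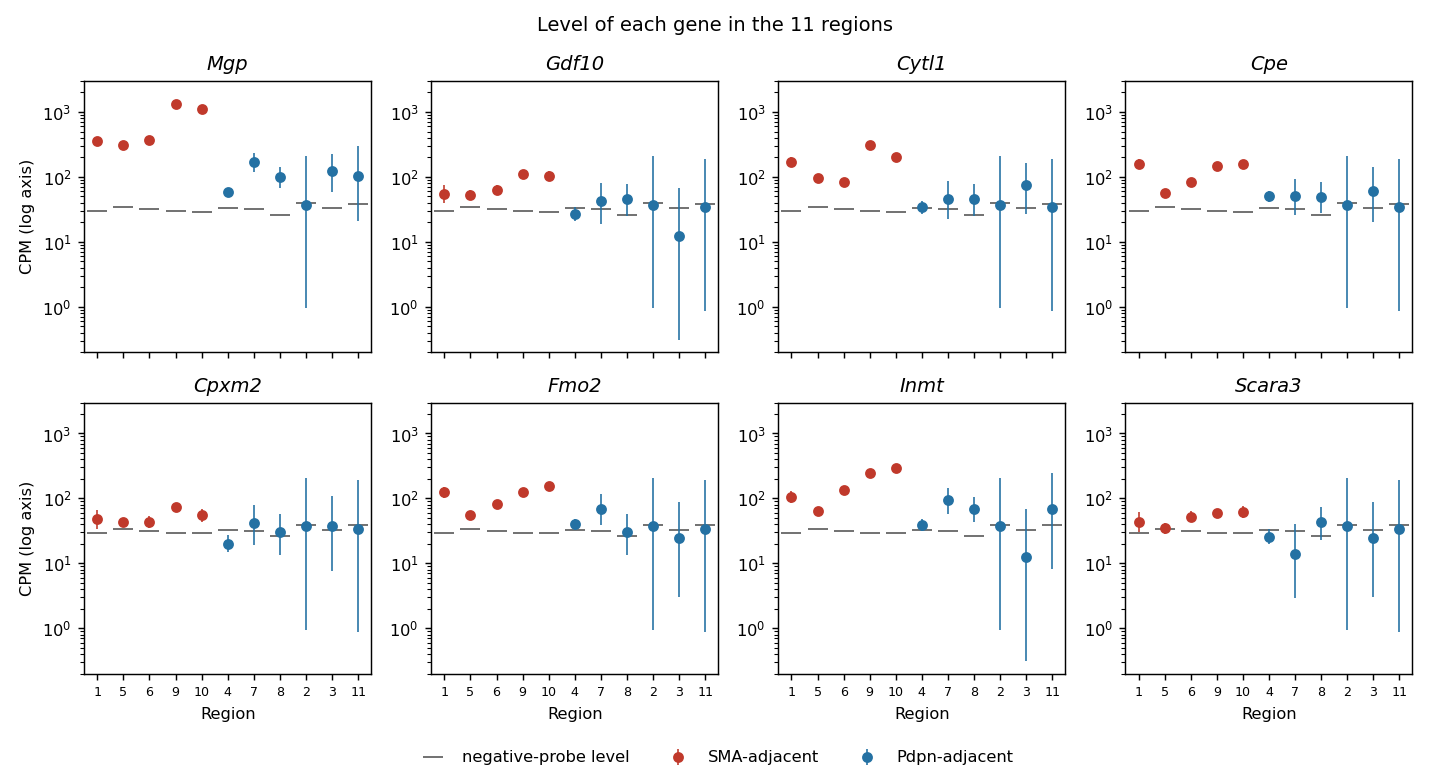
CPM (log axis) of each gene in the 5 SMA-adjacent regions (red), Pdpn-adjacent regions 4, 7 and 8, and the shallow Pdpn-adjacent regions 2, 3 and 11 (blue), with 95% Poisson intervals for counting error and the negative-probe level of each region as a grey dash. Mgp stands above the dash in all 5 SMA-adjacent regions, while most blue points lie near it with wide intervals in regions 2, 3 and 11.

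In CPM the groups did not overlap for Gdf10 and Cytl1, which held for 0.391% of all probes tested. Gdf10 was at 55.4, 53.5, 63.5, 109 and 104 CPM in SMA-adjacent regions 1, 5, 6, 9 and 10, and at 12.3 to 46.5 CPM, with a median of 35.9, in Pdpn-adjacent ones. Regions 9 and 10 were highest, and the gap between the groups, from 46.5 to 53.5 CPM, is within the counting error of the 14 counts behind the former (25.4 to 78.0 CPM). Gdf10 means were 77.2 ± 27.3 CPM (SD, n = 5) and 33.3 ± 12.2 CPM (SD, n = 6). The fitted log2 difference was -1.29 ± 0.27 SE. Gdf10 passed the background floor in 2 of 5 SMA-adjacent and 0 of 6 Pdpn-adjacent regions. As multiples of background its groups overlapped, at 1.57 to 3.66 against 0.375 to 1.79 times.

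Cytl1 stood at 170, 96.2, 84.4, 314 and 204 CPM in the same SMA-adjacent regions. Its Pdpn-adjacent range was 34.0 to 74.1 CPM around a median of 42.0, again with no overlap. The top of that range, region 3, rests on 6 counts. Cytl1 had a log2 fold change of -2.02 ± 0.37 SE, and its levels over background were 2.64 to 10.5 against 0.889 to 2.25 times. The Gdf10 probe lies at chromosome 14, 33924106 to 33924141, and the Cytl1 probe at chromosome 5, 37739226 to 37739261, both inside their genes.

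The carboxypeptidase genes had smaller fitted differences than Mgp and Cytl1, and that of Cpe was close to that of Gdf10. Cpe was at 159, 56.9, 82.9, 146 and 160 CPM in SMA-adjacent regions 1, 5, 6, 9 and 10, with regions 1, 9 and 10 close together. In Pdpn-adjacent regions it ran from 34.3 to 61.7 CPM with a median of 50.1, and 5 of 6 lay below every SMA-adjacent region. The exception was region 3, with 5 counts. In the deeper regions 4, 7 and 8 Cpe was at 50.3, 51.2 and 49.8 CPM, all under the floor, and the 11 and 15 counts of regions 7 and 8 give intervals of 25.6 to 91.6 and 27.9 to 82.2 CPM. The means were 121 ± 47.9 CPM (SD, n = 5) and 47.5 ± 10.0 CPM (SD, n = 6), and the log2 fold change was -1.24 ± 0.29 SE.

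Cpxm2 stayed near background in both groups. It was at 47.5, 42.7, 43.7, 72.9 and 54.7 CPM in SMA-adjacent regions and at 20.2 to 41.9 CPM, median 35.6, in Pdpn-adjacent ones, and only region 9 passed the floor set by the negative probes (their mean plus 2 SDs on the log2 scale). The Cpxm2 groups did not overlap, but 41.9 and 42.7 CPM are nearly the same value. Its log2 fold change of -1.08 ± 0.23 SE depended on region 4, the deepest Pdpn-adjacent library, where it stood at 20.2 CPM. It was -0.58 without region 4, -0.41 without regions 4 and 8 and -0.49 with limma-voom. The Cpe probe lies at chromosome 8, 64619390 to 64619427, and that of Cpxm2 at chromosome 7, 132062090 to 132062125.

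The genes of small-molecule metabolism overlapped between the groups. Fmo2 was at 124, 55.6, 81.4, 128 and 153 CPM in SMA-adjacent regions 1, 5, 6, 9 and 10, and at 24.7 to 69.8 CPM with a median of 35.9 in Pdpn-adjacent ones. Region 7, the highest of the latter, lay above SMA-adjacent region 5 and stood apart from the next Pdpn-adjacent value of 40.0 CPM. Its 15 counts give an interval of 39.1 to 115 CPM. Fmo2 had a log2 fold change of -1.37 ± 0.29 SE.

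Inmt was at 105, 64.5, 133, 244 and 291 CPM in SMA-adjacent regions 1, 5, 6, 9 and 10, with region 10 at 4.50 times region 5. In Pdpn-adjacent regions it ran from 12.3 to 93.1 CPM with a median of 54.1, and 3 of 6 lay below every SMA-adjacent region. Region 7, the highest, rests on 20 counts, with an interval of 56.9 to 144 CPM. Inmt had a log2 fold change of -1.60 ± 0.40 SE. Its probe, at chromosome 6, 55174907 to 55174941, begins 49 bases into the gene and touches the end of the start region printed above. The Fmo2 probe lies at chromosome 1, 162888828 to 162888863.

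Scara3 was close to background in both groups. It stood at 43.5, 34.7, 52.1, 59.4 and 62.1 CPM in SMA-adjacent regions, and from 14 through a median of 30.0 to 43.2 CPM in Pdpn-adjacent ones, with 4 of 6 below every SMA-adjacent region. Its levels were 1.02 to 2.13 against 0.437 to 1.66 times background, and only region 10 passed the floor. The log2 fold change was -0.87 ± 0.22 SE. The Scara3 probe lies at chromosome 14, 65936426 to 65936463.

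As a set, the 8 genes had log2 fold changes of -2.75 to -0.87 with a median of -1.33, beside a median of 0.01 over the 19935 probes tested. In 4 of the 8 (Mgp, Gdf10, Cytl1 and Cpxm2) every Pdpn-adjacent region lay below every SMA-adjacent one in CPM, which held for 0.391% of all probes tested. Since the rule used this contrast, nothing is read from that count. Scaled to the negative probes instead of the library, 2 of the 8 (Mgp and Cytl1) did not overlap, against 0.446% of all probes. With Pdpn-adjacent regions 4, 7 and 8 alone, 5 of the 8 did not overlap, Cpe being added, against 2.02% of all probes. Without SMA-adjacent region 5 all 8 did not overlap, against 1.13% of all probes. Of the genes' 48 values in Pdpn-adjacent regions 4 passed the floor of their region, and of their 40 values in SMA-adjacent regions 26 did. In regions 2 and 11 that floor is under 2 counts, so a pass there says little.

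**Figure D2:**
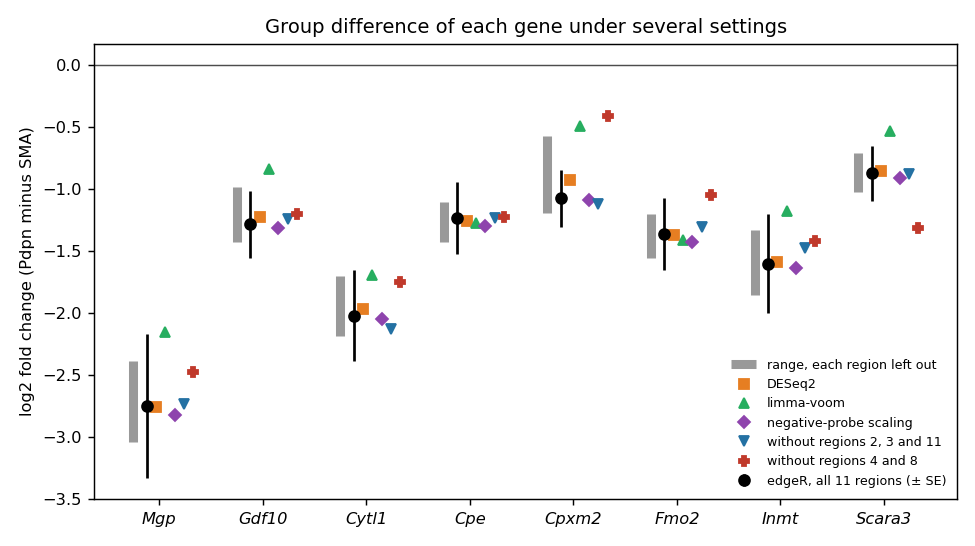
Fitted log2 fold change, Pdpn-adjacent minus SMA-adjacent, of each gene with edgeR (black, ± SE), with other tools, scalings or regions (coloured symbols) and the range when each region is left out in turn (grey bars). All values lie below 0, from Mgp at -2.75 to Scara3 at -0.87 in the fit of all regions, and Cpxm2 moves most, to -0.41 without regions 4 and 8.

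The SMA-adjacent regions differed among themselves. For Inmt, Cpe, Cpxm2 and Scara3 the highest over the lowest of them exceeded the ratio of the group means, and for Fmo2 both were 2.75. The values were 4.50 against 3.13 for Inmt and 2.81 against 2.55 for Cpe. Regions 9 and 10 were the highest pair for 7 of the 8 genes, the exception being Cpe, where regions 10 and 1 led. Over all probes tested 18.3% had regions 9 and 10 on top, and 34.2% of the 1257 probes above the floor in all 5 SMA-adjacent regions. Region 5, the deepest library, was the lowest for 7 of the 8 genes, with region 6 lowest for Cytl1, against 21.9% and 43.7% of the same probes. Highest over lowest SMA-adjacent region was 4.50 for Inmt, 4.17 for Mgp and 3.72 for Cytl1, and 1.71 for Cpxm2 and 1.79 for Scara3. The genes did not all follow one order. Mgp in region 1 (359 CPM) was close to regions 5 and 6, whereas Cpe and Fmo2 in region 1 (159 and 124 CPM) were close to regions 9 and 10. The 95% Poisson intervals of Mgp in region 1 (317 to 404 CPM) and region 10 (1061 to 1175 CPM) were far apart, while those of Cpe in these regions (132 to 191 and 139 to 183 CPM) overlapped.

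Marker lists of several cell types also differed among these regions. The 11 measured smooth muscle genes summed to 6406 CPM in region 9 and 3235 CPM in region 10, against 1968, 1446 and 1659 CPM in regions 1, 5 and 6, and 9 of the 11 had regions 9 and 10 as their highest pair. In Pdpn-adjacent regions that sum ran from 480 to 1290 CPM, below all SMA-adjacent regions, and 6 of the 11 genes did not overlap between the groups, against 0.391% of all probes. In edgeR 0 of the 11 passed (0% of all probes lower), 10 were lower at an unadjusted p under 0.05 (3.19% of all probes), and DESeq2 called 4 lower (0.546% of its probes). These tests take regions that share mice as independent. The fibroblast list differed in the order of its highest regions, at 4200 CPM in region 10, 3115 in region 1 and 3076 in region 9. It was at 2414 CPM in region 6 and 1588 CPM in region 5. Regions 9 and 10 were the highest pair for 2 of its 7 genes. Region 5 was the lowest for 6 of these 7 and for 6 of the 11 smooth muscle genes, beside 7 of the 8 genes. Over all probes tested that share was 21.9%, and 43.7% of those above the floor in all 5 SMA-adjacent regions. Blood endothelial genes summed to 892, 939 and 949 CPM in regions 1, 9 and 10 and to 519 and 570 CPM in regions 5 and 6. In Pdpn-adjacent regions the fibroblast sum ran from 263 to 2142 CPM and the blood endothelial sum from 300 to 618 CPM. Adipocyte genes summed to 4940, 3872, 7281, 8236 and 9592 CPM in regions 1, 5, 6, 9 and 10. Their Pdpn-adjacent range was 263 to 8330 CPM. Mast cell genes were highest in regions 10 (519 CPM) and 9 (400 CPM). Fast skeletal muscle genes reached 24021 and 10645 CPM in Pdpn-adjacent regions 3 and 7. Of 9 luminal epithelial genes 8 were higher in Pdpn-adjacent regions at an unadjusted edgeR p under 0.05, against 2.84% of all probes. These 9 genes summed to 864 and 738 CPM in Pdpn-adjacent regions 4 and 8. In Pdpn-adjacent regions 2, 3, 7 and 11 they summed to 488, 531, 438 and 377 CPM, near the 362 to 488 CPM of SMA-adjacent regions. No gene of these lists is at 0, since the table holds no value under 1. The part that neighbouring cells of any of these types have in the levels of the 8 genes was not tested.

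**Figure D3:**
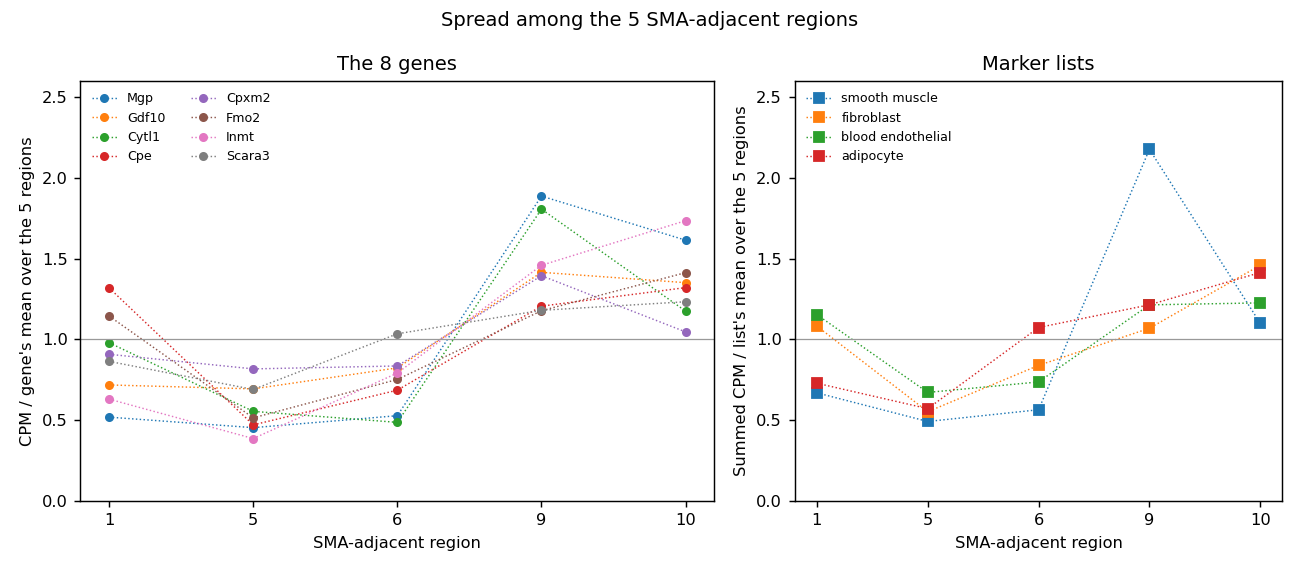
Left, CPM of each of the 8 genes in the 5 SMA-adjacent regions divided by the gene's mean over them. Right, the same for the summed CPM of 4 marker lists; dotted lines only join the points of a gene or list. Regions 9 and 10 are high for nearly all 8 genes, the smooth muscle list peaks in region 9, and Cpe and Fmo2 are also high in region 1.

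The probes whose levels over regions were most like those of the 8 genes are named by rank. Likeness was Pearson's r of log2 CPM with the mean standardised profile of the 8 genes over the 8 regions above 100000 counts, ranked over 1906 probes above the floor in at least 5 of them. The 10 highest were Bgn, the proteoglycan biglycan (0.98), Acta2 (0.97), Myl9 (0.97) and Tagln (0.97) of the contractile apparatus, Myh11, smooth muscle myosin (0.96), Flna, filamin A (0.96), Timp2, a metalloproteinase inhibitor (0.96), Sparcl1, a matricellular protein (0.95), Ctdsp1, a phosphatase (0.94), and Crip1, a LIM domain protein (0.94). These points share their libraries and the group difference that chose the 8 genes, and regions can share a mouse, so the values only describe. Bgn averaged 224 ± 88.2 CPM (SD, n = 5) in SMA-adjacent and 78.9 ± 38.6 CPM (SD, n = 6) in Pdpn-adjacent regions. Over the 5 SMA-adjacent regions alone 1 of these 10 probes was still among the 10 most alike, and over all 11 regions 6 were.

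Genes of related function were grouped by what they are known to do, but the lists were chosen with earlier results of these data known. Their counts are set beside those of all probes as a description, and an excess over all probes is not independent support. Of 102 measured genes in 11 related lists, edgeR called 0 in either direction at an adjusted p under 0.05, as it called 0 lower (0%) and 2 higher (0.0100%) of all 19935 probes. At an unadjusted p under 0.05 there were 15 lower (14.7%) and 2 higher (1.96%) among the 102, beside 3.19% and 2.84% of all probes. DESeq2 called 1 of the 102, Bgn, lower (adjusted p = 0.0498, edgeR adjusted p = 0.237), and of the 2931 probes it gave an adjusted p it called 0.546% lower and 0.0341% higher. The median log2 fold change of the 102 was -0.07. Because some regions share a mouse, all p-values over regions here can be too small. The labels do not say which mouse gave which region, so the size and direction of this error are not known.

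Around Mgp, 0 of 11 genes of Gla proteins and mineralisation control passed in edgeR, with 1 lower and 1 higher at an unadjusted p under 0.05. Vkorc1, which recycles vitamin K, averaged 90.7 ± 10.5 CPM (SD, n = 5) in SMA-adjacent and 53.2 ± 19.4 CPM (SD, n = 6) in Pdpn-adjacent regions (edgeR adjusted p = 0.753). Gas6, another secreted Gla protein, was at 299 ± 96.3 and 167 ± 74.4 CPM (edgeR adjusted p = 0.878). Abcc6, a transporter whose loss causes ectopic mineralisation, was the gene higher at an unadjusted p under 0.05 (edgeR adjusted p = 0.761), though its median was 1.04 times background in both groups. DESeq2 called 0 of the list. Regions share mice, so these p-values can be too small.

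Around Gdf10, no BMP gene passed in edgeR: 0 of 12 ligands, 0 of 9 receptors, 0 of 12 antagonists and 0 of 11 targets and Smads. At an unadjusted p under 0.05 these lists had 1, 1, 3 and 2 genes lower and 1, 0, 0 and 0 higher, and DESeq2 called 0 in each. Their median log2 fold changes were 0.17, -0.07, -0.17 and -0.24. Bmp3, the nearest relative of Gdf10, was at 0.902 times background in SMA-adjacent and 1.17 times in Pdpn-adjacent regions (medians), and differed by 0.34 ± 0.21 SE on the log2 scale (edgeR adjusted p = 0.927). Bmp4, the ligand of smallest p, had -0.40 ± 0.17 SE (edgeR adjusted p = 0.761). Eng, endoglin, a co-receptor of endothelial cells, had -0.78 ± 0.33 SE (edgeR adjusted p = 0.761), and Fstl1, a secreted follistatin-like protein, -0.76 ± 0.26 SE (0.627). The BMP target Id1 and the inhibitor Smad7 were at -0.45 ± 0.19 SE and -0.49 ± 0.19 SE (adjusted p by edgeR of 0.761 and 0.710). Since regions share mice, these tests may give p-values that are too low, though the direction of the error is not known.

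The enzyme families gave the same count. Of 11 other M14 carboxypeptidases 0 passed in edgeR and 1 was lower at an unadjusted p under 0.05, the mast cell protease Cpa3 (-0.70 ± 0.21 SE on the log2 scale, edgeR adjusted p = 0.45). Aebp1, a matrix protein of the same subfamily as Cpxm2, was at a median of 4.30 times in SMA-adjacent and 2.96 times in Pdpn-adjacent regions (edgeR adjusted p = 0.980). Of 11 prohormone processing genes, which act with Cpe in endocrine cells, 0 passed and 1 was lower unadjusted, Pam, which amidates peptides (-0.74 ± 0.25 SE, edgeR adjusted p = 0.620). The convertase Furin was at -0.02 ± 0.19 SE (edgeR adjusted p = 1.00). DESeq2 called 0 in both lists. Some regions share a mouse, which can make these p-values too small.

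Of 6 other flavin monooxygenases 0 passed in edgeR and Fmo1 alone was lower unadjusted, at 58.5 ± 12.8 CPM (SD, n = 5) in SMA-adjacent and 36.6 ± 13.2 CPM (SD, n = 6) in Pdpn-adjacent regions (edgeR adjusted p = 0.761). Of 8 small-molecule methyltransferases 0 passed and Nnmt, which methylates nicotinamide, was lower unadjusted, at 65.1 ± 12.0 against 36.4 ± 15.3 CPM (edgeR adjusted p = 0.387). Of 4 class A scavenger receptors 0 passed and Scara5, a fibroblast ferritin receptor, was lower unadjusted (-0.55 ± 0.23 SE, edgeR adjusted p = 0.761). Marco and Colec12, which are made by macrophages and endothelium, were at 0.05 ± 0.26 SE and 0.09 ± 0.15 SE (edgeR adjusted p = 1.00 for both). DESeq2 called 0 in these 3 lists. These p-values too can be too small where regions share a mouse.

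Mgp, Gdf10 and Fmo2 are often listed for CD142-positive stromal cells of fat, and 7 further genes of that kind were measured. None passed in edgeR, 2 were lower and 0 higher at an unadjusted p under 0.05, and DESeq2 called 1 (Bgn). Over the 7 genes the median log2 difference was -0.47. F3, which encodes CD142, averaged 96.7 ± 25.9 CPM (SD, n = 5) in SMA-adjacent and 52.0 ± 24.5 CPM (SD, n = 6) in Pdpn-adjacent regions (edgeR adjusted p = 0.860). Clec11a, a secreted growth factor, had -0.55 ± 0.20 SE (edgeR adjusted p = 0.647), and Igfbp3, an insulin-like growth factor binding protein, 0.20 ± 0.21 SE (1.00). These p-values can be too small because regions share mice.

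**Figure D4:**
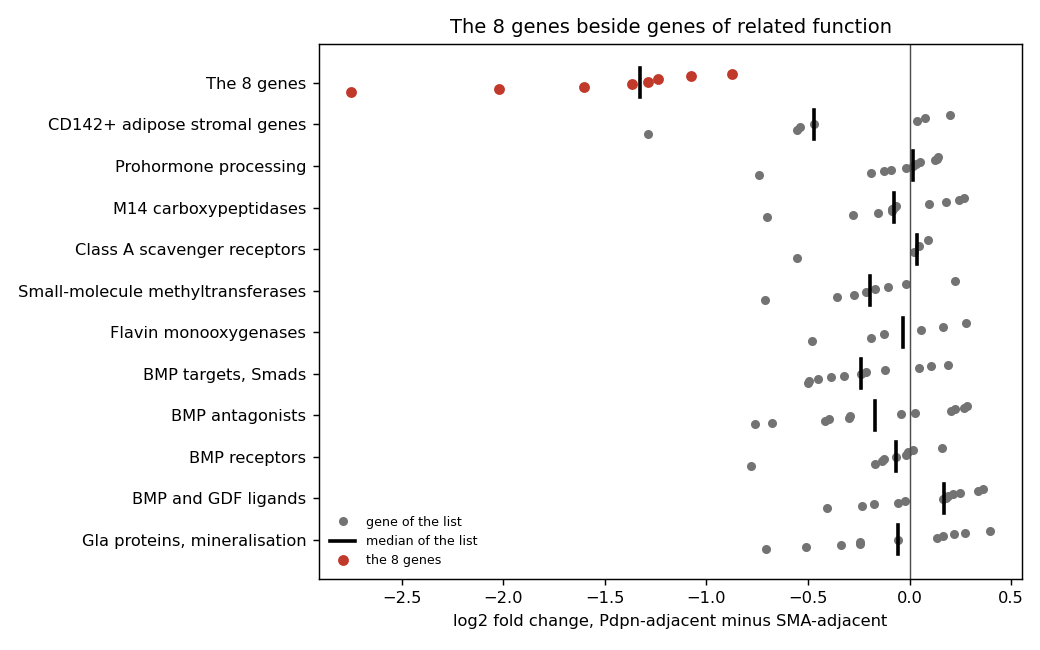
Fitted log2 fold change, Pdpn-adjacent minus SMA-adjacent, of every measured gene in the 11 related lists (grey points, black bars for list medians) and of the 8 genes (red). The medians of the related lists lie between -0.47 and 0.17. The 8 genes, between -2.75 and -0.87, were chosen by this difference, so their distance from the lists is not a result, and the smooth muscle and fibroblast marker lists, not drawn, had medians of -1.20 and -1.09.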

How the data were processed

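The authors' deposited table holds raw counts per probe, judged from its whole numbers and unequal totals, with 19965 endogenous and 210 negative-control probes. The file headers give GRCm38.p6 as the build of the probe coordinates; steps from reads to counts are not given in the sources used here. Columns were mapped to regions by the labels' descriptions. The 19935 probes kept by filterByExpr were fitted with edgeR 4.0.16 in R 4.3.3 (TMM, quasi-likelihood test, two-sided, Benjamini-Hochberg adjustment, threshold 0.05). CPM use TMM-scaled totals. SEs are those implied by the test, and intervals are exact Poisson at 95%. Background is the geometric mean of the negative probes. Alternatives changed the scaling, filter, tool (DESeq2 1.42.0, limma-voom of limma 3.58.1) or regions. The fit was tested on simulated data. Start regions came from RefSeq tables on GRCm38.p6. Nothing in the labels says that regions are from separate animals, so p-values measure the spread between regions.

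The 8 genes and all 25 gene lists (11 of related genes, 14 of cell type markers) were chosen with earlier results of these data known. Genes named are the 8, the 10 most alike by correlation, up to 3 of smallest p or those above 2 times background in each related list, and Acta2, Pdpn and Postn; Col1a1 was named from the fibroblast markers.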

Additional observations from a re-analysis of the deposited data

Results flagged for a closer look

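In 2 of 16 sets (each of the 8 genes in each group) 1 region stood apart from the rest of its group by Dixon's gap ratio, and chance gives about 1 in 20. Cytl1 in Pdpn-adjacent region 3 was at 74.1 CPM, with the next region at 46.6 CPM, and rests on 6 counts. Fmo2 in Pdpn-adjacent region 7 was at 69.8 CPM, with the next at 40.0 CPM, and rests on 15 counts.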

How the results depend on the processing

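All 160 refitted log2 fold changes of the 8 genes were below 0, and 157 moved by less than the spread within groups; the other 3 were of Cpxm2, at -0.49 with limma-voom, -0.41 without regions 4 and 8 and -0.58 without region 4. The median of the 8 ran from -1.49 to -1.20 when each region was left out, and from -1.37 to -1.23 in the other alternatives. The number of genes whose groups did not overlap was 4, became 3 with no scaling beyond the library total and 2 with negative-probe scaling (the same as multiples of the negative-probe level), and ran from 4 to 8 when each region was left out, 8 without region 5. Over all probes edgeR called 2 higher and 0 lower. Higher calls numbered 1 with no scaling, upper-quartile factors, negative-probe scaling, DESeq2 or without regions 2, 3 and 11, 0 with limma-voom, and 13 without regions 4 and 8. Lower calls numbered 1 with no scaling and 16 with DESeq2. Leaving out each region gave 1 to 12 higher and 0 to 41 lower calls, the latter without region 5. The median correlation between the 8 genes was 0.85 (28 pairs, from 0.46 to 0.97, over the 8 regions above 100000 counts). It was 0.73 over all 11 regions, 0.80 over the 5 SMA-adjacent regions and 0.88 as Spearman's rho. Because the group difference chose all 8 genes, a high correlation over both groups was built in, and these values only describe. No paired analysis was possible because the labels do not say which mouse gave which region. The cause of these shifts was not tested. Depth limits regions 2, 3 and 11, where most values of the 8 genes are single counts.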
